A study of Homo sapiens with 2 samples.

Results

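The genes described here carry the symbols of the main families of splicing factors and RNA helicases. They are the 164 protein-coding RefSeq genes on GRCh38, of 20037 in all, whose symbols start with SRSF, HNRNP, SNRP, SF3, PRPF, DDX, DHX or RBM followed by a digit. The rule for membership used names only and no measured value, but was proposed after results from these data had been seen. It gave 12 SRSF, 26 HNRNP, 12 SNRP, 9 SF3, 12 PRPF, 38 DDX, 16 DHX and 39 RBM genes, of which RBM27-POU4F3 and RBM14-RBM4 are readthrough genes that share a start with RBM27 and RBM14. The data are ATAC-seq, which marks accessible DNA by transposase insertion, from the human prostate cancer line C4-2 (C42 in the labels), a castration-resistant descendant of LNCaP. There were 2 libraries, 1 of cells with a control shRNA (the control) and 1 of cells with an shRNA against WHSC1, also named NSD2, a histone H3 methyltransferase (the knockdown). The cells of both libraries were grown in RPMI with FBS and P/S and differ by the shRNA alone as far as the labels say. The labels name 1 shRNA against WHSC1 and give no second line, clone or time. Each group is 1 library with no replicate spread to judge a difference by, so no test was made and every statement compares 2 libraries. In a bulk library, accessibility in fewer cells and less accessibility per cell cannot be told apart.

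Splicing removes introns from a transcript. The spliceosome is built from small nuclear ribonucleoproteins (snRNPs) on a ring of Sm proteins (SNRP genes), recognises the branch site through the SF3A and SF3B complexes of the U2 snRNP, and is completed by the PRPF proteins of the U1, U4, U5 and U6 particles. Serine and arginine rich proteins (SRSF) mostly promote the use of an exon, and heterogeneous nuclear ribonucleoproteins (HNRNP) often repress it. DEAD-box (DDX) and DEAH-box (DHX) helicases use ATP to rearrange RNA and its proteins in splicing, ribosome assembly, translation and decay. Most of these genes are active in dividing cells of every tissue and start in CpG-rich promoters.

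The control list held 2010 broad peaks and the knockdown list 2418. Each peak carries the authors' fold enrichment over local background (called fold below) and the −log10 of its q-value, and the weakest had a −log10 q of 1.01 and 1.02. The lists hold no reads, so the depth is unknown, and a gene without a peak lacks a call at the authors' threshold, which is not a measured absence of accessibility. NSD2 itself had no peak in either library (nearest at 280 and 1178 kb), and a peak list cannot check an shRNA. Of 12 markers of the prostate line, ACP3 and STEAP2 had a peak in both libraries and the others, KLK3 among them, in neither, so these lists do not verify the line. None of 12 markers of leukocytes, stroma, endothelium and basal epithelium had one. The share of all protein-coding genes with such a peak was low too, 7.64% (control) and 9.26% (knockdown). Finding 0 of 12 therefore does not show that other cell types were absent.

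Of the 164 genes, 15 carried a control peak in the gene or within 3 kb of an end, and 21 a knockdown peak. Among all protein-coding genes 7.64% did in the control and 9.26% in the knockdown, against 9.15% (95% exact Clopper-Pearson interval 5.21 to 14.6%) and 12.8% (interval 8.10 to 18.9%) of these genes. Both intervals, which cover counting only, contain the share over all genes. Weighting the shares of all genes in each of 10 classes of local gene density to the density of these 164 genes gave 7.29% and 8.89%. A peak in both libraries was found at 11 of the 164 genes (6.71%, against 4.95% of all genes). The control alone had one at 4 (2.44%, against 2.69%) and the knockdown alone at 10 (6.10%, against 4.32%). The other 139 genes had none.

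Nearly all of these peaks lay at a gene end. Within 3 kb of an end, 15 genes carried a control peak and 20 a knockdown peak, or 9.15% and 12.2%, where all genes gave 6.28% and 7.52%. Here too the difference was small in genes: the intervals were 5.21 to 14.6% and 7.61 to 18.2%, and the lower bound in the knockdown lies just above the share of all genes. These genes come in families and 2 of them share a start, so they are not independent draws. They were also proposed for description after results from these lists had been seen.

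**Figure D1:**
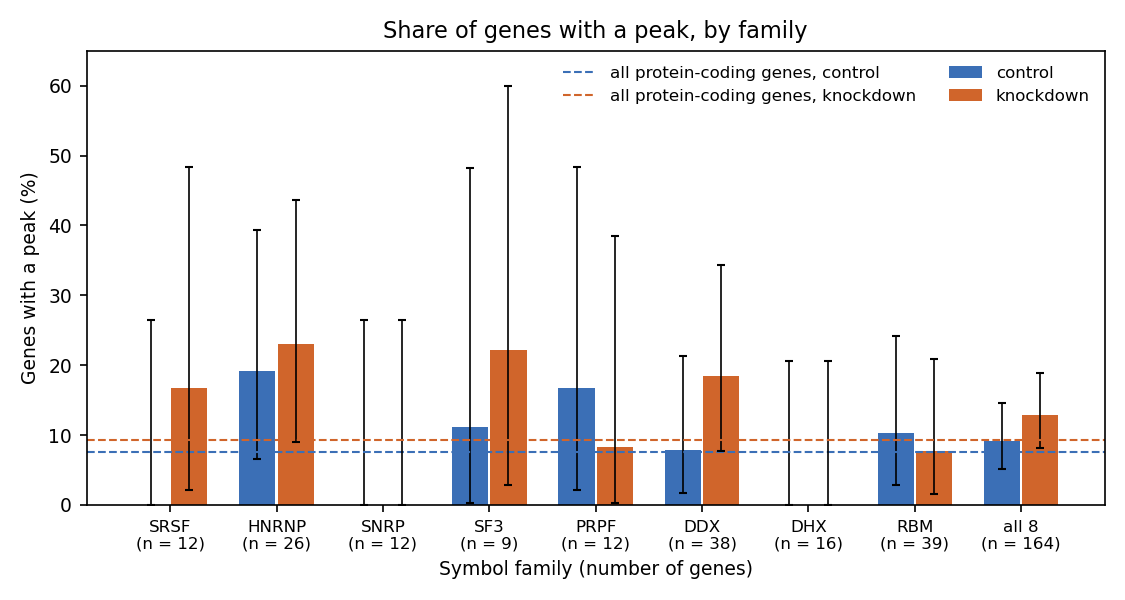
Share of genes with a peak in the gene or within 3 kb of an end (y axis, percent) for each symbol family (x axis) in the control (blue) and the knockdown (orange), with 95% exact intervals and dashed lines for all protein-coding genes (7.64% and 9.26%). HNRNP genes have the highest share in both libraries, SNRP and DHX have none, and every interval reaches the dashed line of its library.

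The families differed in their counts and shares. HNRNP genes had the highest share in both libraries, with 5 of 26 in the control (19.2%, interval 6.55 to 39.4%) and 6 of 26 in the knockdown (23.1%, interval 8.97 to 43.6%). DDX genes had the most genes with a knockdown peak, 7 of 38 (18.4%, interval 7.74 to 34.3%), and 3 of 38 had a control peak. RBM genes had 4 and 3 of 39, PRPF 2 and 1 of 12, SF3 1 and 2 of 9, and SRSF 0 and 2 of 12. None of the 28 SNRP and DHX genes had a peak in either library (interval for the 28 together 0 to 12.3%). These intervals are wide and overlap, and no difference between families was tested.

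The sequences before the start of 7 of these genes are shown because the peaks described next cover all or part of them. They are the 250 bases upstream of the annotated start, 5′ to 3′ on the strand of the gene, from RefSeq on GRCh38.p14. RBM27 had the highest −log10 q of these genes in each library, HNRNPD had the higher fold in the knockdown and HNRNPH3 in the control, and SF3B6 had a peak in both that neighbours share. SF3B5 and SRSF8 had one in the knockdown only, and RBM7 in the control only. Capitals mark matches, on either strand, to 8 short motifs given with the promoter results below.
RBM27: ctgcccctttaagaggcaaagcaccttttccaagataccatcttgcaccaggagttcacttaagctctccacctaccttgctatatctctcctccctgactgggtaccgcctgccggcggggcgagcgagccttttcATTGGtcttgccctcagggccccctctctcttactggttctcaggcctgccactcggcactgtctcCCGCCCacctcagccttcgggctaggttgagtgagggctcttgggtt
HNRNPD: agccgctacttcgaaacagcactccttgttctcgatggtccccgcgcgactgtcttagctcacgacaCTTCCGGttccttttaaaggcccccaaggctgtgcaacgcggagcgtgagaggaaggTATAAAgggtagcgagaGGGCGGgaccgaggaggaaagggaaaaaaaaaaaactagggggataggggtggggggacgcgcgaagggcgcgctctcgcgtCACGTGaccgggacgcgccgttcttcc
HNRNPH3: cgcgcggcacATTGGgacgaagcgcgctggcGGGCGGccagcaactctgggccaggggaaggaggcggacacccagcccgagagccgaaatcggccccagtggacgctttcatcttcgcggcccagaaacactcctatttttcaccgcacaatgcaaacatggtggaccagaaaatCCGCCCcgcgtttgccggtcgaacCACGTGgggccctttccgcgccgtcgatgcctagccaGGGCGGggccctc
SF3B6: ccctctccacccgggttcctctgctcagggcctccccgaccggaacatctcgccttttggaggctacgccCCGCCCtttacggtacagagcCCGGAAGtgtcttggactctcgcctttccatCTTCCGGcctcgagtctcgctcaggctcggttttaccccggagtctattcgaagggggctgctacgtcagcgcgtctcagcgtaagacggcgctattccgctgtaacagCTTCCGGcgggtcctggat
SF3B5: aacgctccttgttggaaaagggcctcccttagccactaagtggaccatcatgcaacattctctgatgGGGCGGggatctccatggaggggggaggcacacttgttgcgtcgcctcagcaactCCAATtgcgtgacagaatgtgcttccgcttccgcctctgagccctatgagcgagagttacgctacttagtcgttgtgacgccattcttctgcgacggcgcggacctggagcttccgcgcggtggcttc
RBM7: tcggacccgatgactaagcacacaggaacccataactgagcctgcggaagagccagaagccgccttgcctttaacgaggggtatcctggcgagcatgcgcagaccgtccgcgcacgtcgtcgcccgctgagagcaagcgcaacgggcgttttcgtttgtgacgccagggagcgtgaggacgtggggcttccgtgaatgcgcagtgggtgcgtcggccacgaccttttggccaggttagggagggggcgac
SRSF8: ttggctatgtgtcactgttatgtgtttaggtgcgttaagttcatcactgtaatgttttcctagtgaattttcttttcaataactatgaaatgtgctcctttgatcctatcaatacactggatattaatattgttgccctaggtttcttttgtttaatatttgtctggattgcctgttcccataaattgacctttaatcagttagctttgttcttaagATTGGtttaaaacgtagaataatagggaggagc
These windows are, in order, chr5:146203355-146203604 (plus strand), chr4:82373992-82374241 (minus), chr10:68331443-68331692 (plus), chr2:24076327-24076576 (minus), chr6:144095574-144095823 (minus), chr11:114400416-114400665 (plus) and chr11:95066627-95066876 (plus). The RBM27 window lay wholly under both peaks, all 250 bases. In HNRNPD both peaks covered the same number of bases, the 132 farthest from the start. The knockdown peak covered all 250 bases of the SF3B5 window, and the control peak 241 of the 250 in RBM7. The other windows were covered in part: SF3B6 at 87 bases by the control peak and 228 by the knockdown peak, and HNRNPH3 at 44 and 168. In SRSF8 the knockdown peak covered 90 bases, so most of that window lay outside it. The whole SRSF8 window held 33.6% G and C, against 58.4% in RBM27 and 66.0% in HNRNPH3. SRSF8 is a retrogene related to SRSF2.

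Of the 11 genes with a peak in both libraries, 4 were hnRNP genes, more than in any other family. HNRNPA1, an abundant splicing repressor that shuttles between nucleus and cytoplasm, had a fold of 3.95 in the control (chr12:54280233-54280551, −log10 q 2.39) and 3.97 in the knockdown (chr12:54280332-54280757, −log10 q 3.0). Its values were close in the 2 lists. The same peaks lay within 3 kb of an end of CBX5, the gene of heterochromatin protein HP1 alpha, so they cannot be assigned to HNRNPA1 alone. HNRNPD encodes AUF1, which binds AU-rich elements and marks transcripts for decay. Its fold was 3.36 in the control (chr4:82374110-82374341, −log10 q 1.46) and 4.07 in the knockdown (chr4:82374110-82374377, −log10 q 4.04), starting at the same base in both. The knockdown peak of HNRNPD was thus the higher, and no other coding gene ended within 3 kb. Its paralogue HNRNPDL, on the same chromosome, also had a peak in both, with a control fold of 3.50 and a knockdown fold of 3.19. That peak was wide, 1032 and 1154 bp, and was shared with ENOPH1. HNRNPH3, a G-tract binding protein, had a fold of 3.95 in the control (chr10:68331649-68331959, −log10 q 2.95) and 3.31 in the knockdown (chr10:68331525-68331974, −log10 q 1.84). It was thus higher in the control, and the peak also lay at an end of PBLD.

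The other hnRNP genes with a peak had it in 1 library. HNRNPA3, a relative of HNRNPA1, had a control peak of 3.77-fold (chr2:177212252-177212583, −log10 q 2.08), with the knockdown list coming no nearer than 39.7 kb. HNRNPF, another G-tract binder, had a 2.91-fold peak in the knockdown only (−log10 q 1.25), one of the weakest of its list at rank 2353 of 2418 by fold. HNRNPL, which binds CA repeats, had a 3.32-fold peak in the knockdown only (chr19:38850160-38850664, −log10 q 1.99). It lay inside the gene, 1683 bp after the start, and was the farthest from an end among all peaks within 3 kb of these genes. HNRNPA2B1, HNRNPK and HNRNPC had no peak in either library, with the nearest at 327 kb or more. HNRNPA1L2, a copy of HNRNPA1 elsewhere in the genome, lay outside the 3 kb limit, with peaks 8.71 kb away in the control (3.93-fold) and 8.67 kb away in the knockdown (3.51-fold).

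Of the 12 SR protein genes, 2 had a peak in the knockdown (16.7%, interval 2.09 to 48.4%) and 0 in the control, against 9.26% and 7.64% of all genes. SRSF8 had a 3.52-fold peak over its start (chr11:95066787-95067313, −log10 q 2.37), and the nearest control peak was 160 kb away. SRSF5, an SR protein of the splicing enhancer class, had a 3.18-fold peak (chr14:69767758-69768081, −log10 q 1.43) inside the gene, 616 bp after the start. SRSF1, SRSF2, SRSF3 and SRSF7, among the most studied of the family, had none in either library. The nearest peak to SRSF1 was at 3087 kb in the control and 511 kb in the knockdown.

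Among the snRNP genes, small subunits of the SF3B complex had peaks. SF3B6, which contacts the branch site adenosine, had a fold of 3.66 in the control (chr2:24076192-24076413, −log10 q 1.97) and 3.75 in the knockdown (chr2:24076306-24076554, −log10 q 2.89). FAM228B and TP53I3 also ended within 3 kb of these peaks. SF3B5, another small subunit, had a 3.92-fold peak in the knockdown only (chr6:144095560-144095848, −log10 q 2.80), with no control peak nearer than 1640 kb. SF3B1, the large subunit mutated in several cancers, had no peak within 3 kb. Its nearest were 17.9 kb away in the control and 18.0 kb away in the knockdown. PRPF39, a U1 associated protein, had a control peak of 3.43-fold (chr14:45084049-45084357, −log10 q 2.68), and the closest peak of the knockdown list was at 10.4 kb. PRPF8, at the heart of the U5 particle, PRPF19 and SF3A1 had none, nor had any of the 12 SNRP genes, which encode the Sm ring and proteins of the U1 and U2 particles.

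Of the DEAD-box helicases, DDX18 had the highest fold in the knockdown. DDX18 acts in ribosome assembly in the nucleolus. Its fold was 4.29 in the control (chr2:117814446-117814873, −log10 q 3.57) and 4.99 in the knockdown (chr2:117814520-117814721, −log10 q 5.74), with ranks of 273 of 2010 and 71 of 2418. The knockdown peak was narrower, 202 against 428 bp, and no other coding gene ended near it. DDX59, mutated in an orofaciodigital syndrome, had a fold of 3.48 in the control (chr1:200669544-200669873, −log10 q 2.11) and 4.04 in the knockdown (chr1:200669531-200670357, −log10 q 4.26). In DDX59 the control peak began 34 bp after the start, while the knockdown peak of 827 bp ran from 450 bp before it to 376 bp after it.

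The remaining DDX peaks were in 1 library. DDX11 had 2 knockdown peaks, 1 over its start (chr12:31073829-31074347, 4.03-fold, −log10 q 3.19) and 1 inside the gene (chr12:31078606-31078831, 4.76-fold, −log10 q 5.10). DDX11 is a DNA helicase of sister chromatid cohesion despite its name, and reads there are uncertain because the pseudogene DDX12P is a near-identical copy. DDX12P itself had no peak within 3 kb in either library. DDX11L2, a pseudogene on chromosome 2 that also carries the DDX11 name, had 1 in each. DDX1, a subunit of the tRNA ligase complex, had a 3.71-fold peak over its start in the knockdown only (chr2:15591801-15592112, −log10 q 2.44), and the nearest control peak was 6009 kb away. DDX5, a helicase of splicing and transcription, had a 3.44-fold peak in the knockdown only (chr17:64506355-64506782, −log10 q 1.65), shared with CEP95. Its partner DDX17 had none. DDX43, a cancer-testis antigen, had a 3.09-fold peak in the knockdown only, shared with OOEP. With a −log10 q of 1.12, it was the weakest by q at these genes. DDX60L, an interferon-induced gene, had a 3.33-fold knockdown peak of 1299 bp inside the gene (chr4:168447967-168449265, −log10 q 1.38), 31227 bp from the nearer end. DDX50, a nucleolar helicase, had a control peak of 3.50-fold and no knockdown peak (chr10:68901214-68901458, −log10 q 1.52). DDX3X and DDX39B had none.

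No DEAH-box helicase gene had a peak. DHX9, an RNA helicase that resolves double-stranded RNA, was 448 kb from the nearest control peak and 80.7 kb from the nearest knockdown peak. DHX15, which disassembles the spliceosome, was 328 kb away in both. DHX37, a helicase of small ribosomal subunit assembly, was the nearest to the limit of all the genes without a peak, 6.67 kb from a 3.93-fold control peak and 6.63 kb from a 3.30-fold knockdown peak.

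Among the RBM genes, RBM27 carried the highest fold of all 164 genes in the control. RBM27 is a nuclear zinc finger protein linked to the decay of polyadenylated RNA. Its fold was 4.80 in the control (chr5:146203200-146203635, −log10 q 7.21) and 4.37 in the knockdown (chr5:146203280-146203670, −log10 q 6.29), with ranks of 90 of 2010 and 191 of 2418. The same peak counts for the readthrough RBM27-POU4F3. RBM15, an adaptor of the RNA adenosine methylation complex, had a fold of 3.39 in the control (chr1:110338893-110339155, −log10 q 1.39) and 3.22 in the knockdown (chr1:110338542-110339391, −log10 q 1.67), shared with LOC124904276. RBM7, a subunit of the nuclear exosome targeting complex, had a control peak of 3.67-fold and no knockdown peak (chr11:114400175-114400656, −log10 q 1.96). That peak was shared with C11orf71, and the knockdown list came no nearer than 28.8 kb. RBM39, RBM10 and RBM5, regulators of alternative splicing, had none.

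**Figure D2:**
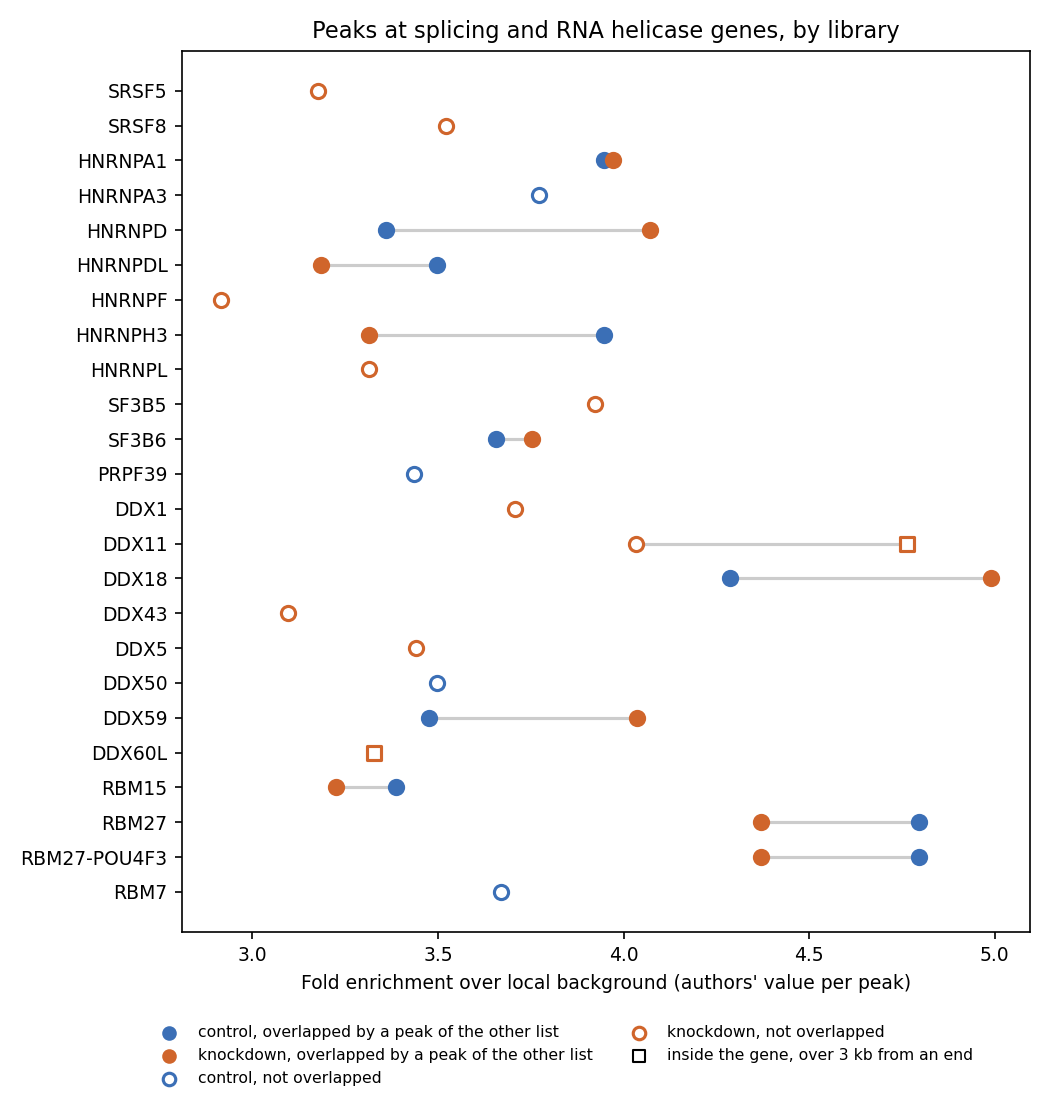
Fold enrichment (x axis, the authors' value per peak) of the peaks at these genes that are named here (y axis, ordered by family), control in blue and knockdown in orange, filled where a peak of the other list overlaps and open where none does, with squares for peaks inside a gene over 3 kb from an end. DDX18, HNRNPD and DDX59 are higher in the knockdown, HNRNPH3 and RBM27 in the control, and both DDX11 points are knockdown peaks.

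Where both libraries had a peak, the fold was higher in either list about as often. Counting RBM27 once, 10 loci had a peak in both, and the fold was higher in the knockdown at 5 of them, with a median of 3.67 for the control peaks and 3.86 for the knockdown peaks. Over all protein-coding genes with a peak in both, it was higher in the knockdown at 422 of 991. Those 991 are genes and not loci, so a peak shared by neighbours counts more than once among them. The −log10 q was higher in the knockdown at 7 of the 10 loci. No such count over the 991 genes was made, so the 7 cannot be set against all genes. The median difference in fold, knockdown minus control, was -0.02, against -0.09 over those 991 genes. The knockdown was higher by the most at HNRNPD (a difference of 0.71), DDX18 (0.70) and DDX59 (0.56). It was lower by the most at HNRNPH3 (-0.63), RBM27 (-0.43) and HNRNPDL (-0.31). The folds are relative to the background within each library and were not scaled between them, so these differences are a description. The 2 peaks overlapped at all 10 loci, and their centres lay from 18 bp apart at HNRNPD to 458 bp apart at HNRNPDL.

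The peaks found in 1 list had lower median −log10 q than those found in both. At these genes 10 of 14 control peaks (71.4%, interval 41.9 to 91.6%) were overlapped by a knockdown peak, and 10 of 21 knockdown peaks (47.6%, interval 25.7 to 70.2%) by a control peak. Over all peaks in or near protein-coding genes these shares were 58.0% and 47.8%. In the knockdown the peaks without a partner had a median −log10 q of 1.99 against 3.01 for those with one, and in the control 2.02 against 2.25. Only RBM27 in the control, and RBM27, DDX18 and DDX11 in the knockdown, reached a −log10 q of 5. With both lists limited to a −log10 q of at least 2, control peaks were left at 9 of the 164 genes (5.49%, against 4.36% of all genes) and knockdown peaks at 12 (7.32%, against 5.63%). Cutting the knockdown list to the length of the control list left 17 genes with a knockdown peak and 6, instead of 10, with a peak in the knockdown only. The share of all genes at that cut was not set beside them, so this fall is not a result about these genes.

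**Figure D3:**
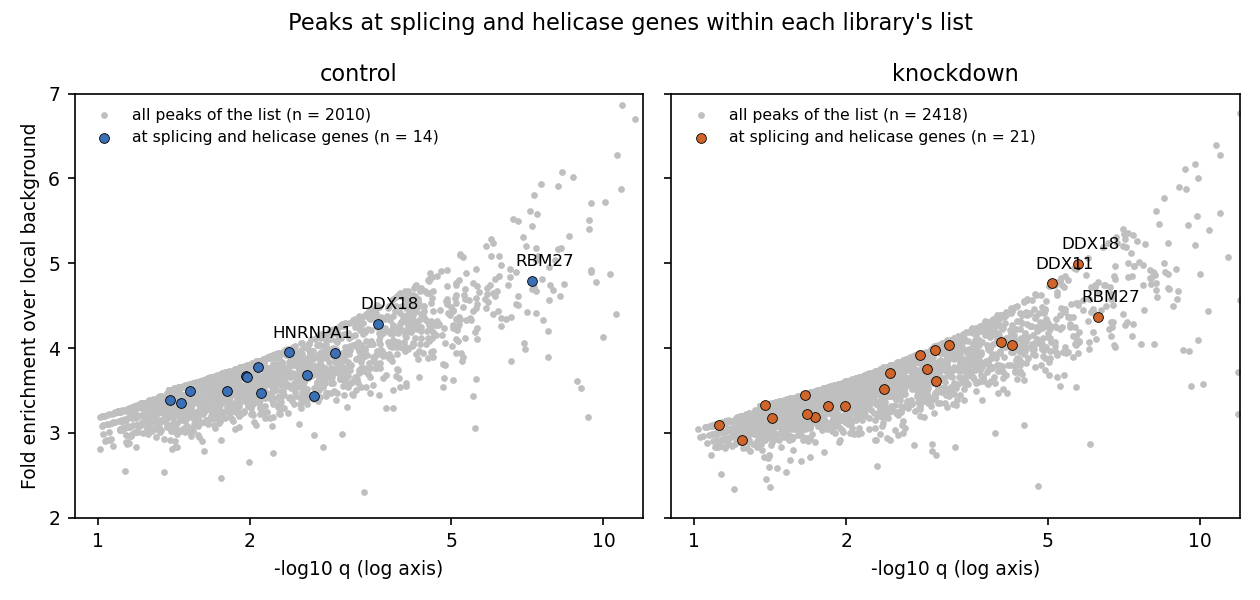
Fold enrichment (y axis) against the −log10 q of each peak (x axis, log scale) in the control (left) and the knockdown (right), all peaks in grey and those at splicing and helicase genes in colour, with the 3 highest named. The 14 control peaks ranked from 90 to 1503 of 2010 by fold and the 21 knockdown peaks from 71 to 2353 of 2418, with median ranks of 877.5 and 887. RBM27 stands highest in the control, DDX18 in the knockdown. Outside the axes lie 52 control and 53 knockdown peaks, none at these genes.

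In height and width the peaks at these genes resembled other peaks at genes. Median folds were 3.66 (range 3.36 to 4.80) for the control peaks and 3.62 (range 2.91 to 4.99) for the knockdown peaks, against 3.59 and 3.46 over all peaks in or near protein-coding genes. Median −log10 q values were 2.09 and 2.44 in the same order, against 2.14 and 2.2. Median widths were 324.5 and 428 bp, against 365 and 366 bp.

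Where the reference gives a start, the genes with a peak within 3 kb of an end had one within 3 kb of the start. This held for all 11 such genes in the control and all 17 in the knockdown, against 92.9% and 92.8% of all protein-coding genes. The peak covered the start itself in 6 of 11 genes in the control (54.5%) and in 13 of 17 in the knockdown (76.5%), against 54.6% and 55.1% over all genes. HNRNPL and SRSF5 in the knockdown were more than 500 bp from the start, and all others of these genes were within 500 bp. DDX18, HNRNPA1 and PRPF39 have no start in the table used, and their peaks are placed by the nearer gene end. Exons, introns and UTRs were not separated here.

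**Figure D4:**
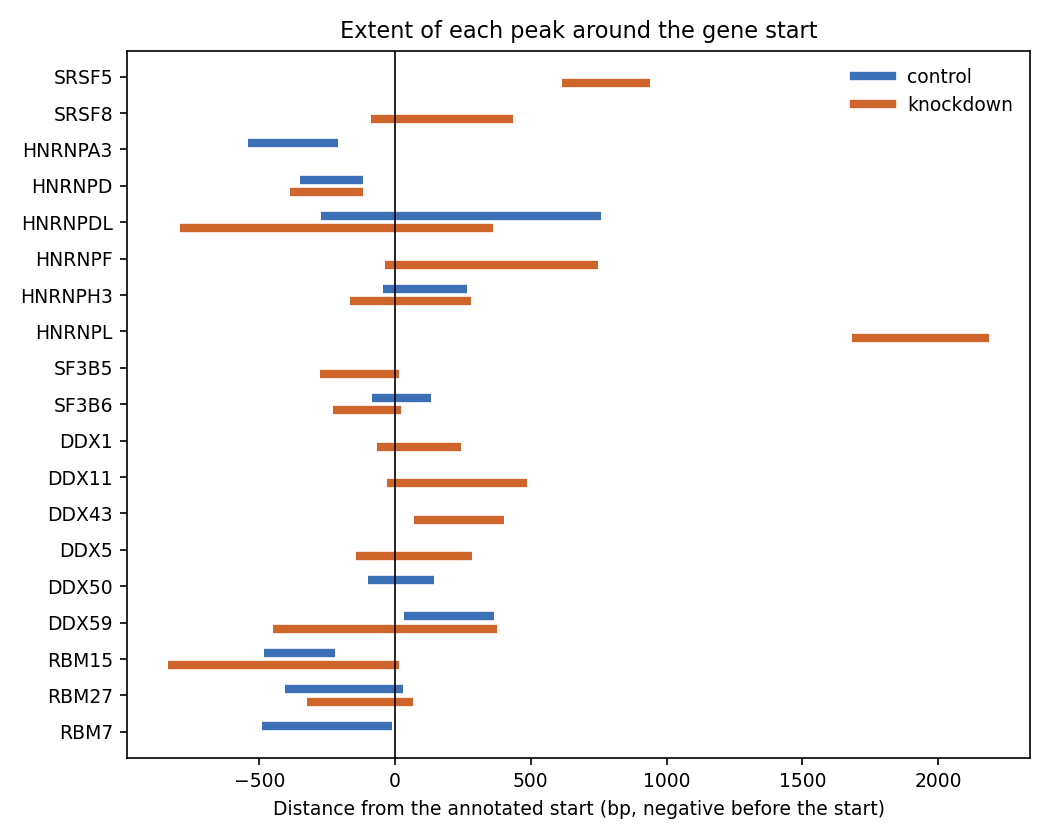
Extent of each peak within 3 kb of an end (bars) relative to the annotated start of the gene (x axis, bp, negative before the start) for the genes with a known start, control in blue and knockdown in orange. Most bars cross or touch the start. SRSF5, HNRNPL and DDX43 lie after it, as does the control bar of DDX59. HNRNPA3, HNRNPD and RBM7 lie before it, as does the control bar of RBM15.

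Many of these peaks also lay at an end of a neighbour. Of the 15 of these genes with a control peak at an end, 9 shared it with another protein-coding gene (60%, interval 32.3 to 83.7%), and of the 20 with such a knockdown peak 10 did (50%, interval 27.2 to 72.8%). Counted the same way, 37.8% and 39.8% of all protein-coding genes with a peak at an end shared it, and both shares lie inside those intervals. RBM27 and its readthrough count as sharing with each other. A noncoding gene ended within 3 kb of the peak for 6 of the 15 and 8 of the 20 genes, 40% in each library, against 33.5% and 33.1% of all genes with a peak at an end. The noncoding genes include antisense and divergent transcripts such as DDX59-AS1, DDX11-AS1, RBM15-AS1, HNRNPD-DT and PRPF39-DT. With peaks shared with a coding neighbour left out, which also drops RBM27 for its readthrough, control peaks were left at 6 genes and knockdown peaks at 11. No share of all genes under the same limit was set beside these counts, so they say nothing particular to these genes. Divergent coding partners, on the other strand with a start at most 1 kb upstream, were found for 4 of 21 genes with a peak (19%): FAM228B for SF3B6, ENOPH1 for HNRNPDL, C11orf71 for RBM7 and CEP95 for DDX5. The share was 18.4% of 125 such genes without a peak, 17.8% of all protein-coding genes with a peak and 10.3% of all protein-coding genes. Divergent partners were thus about as frequent at these genes with and without a peak.

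Peaks at these genes lay mostly where genes are sparse, as over the genome. The 25 genes with a peak had a median of 8 protein-coding neighbours within 500 kb, and the 139 without a peak had 14. At or below the genome's median of 12 neighbours, 12 of 85 of these genes (14.1%) had a control peak and 18 (21.2%, interval 13.1 to 31.4%) a knockdown peak, where all genes gave 12.7% and 15.2%. Above it, 3 of 79 genes (3.80%) had one in each library, where all genes gave 1.96% and 2.64%. HNRNPL had the most neighbours of the genes with a peak, 32, and DDX1 and DDX18 were among those with the fewest, 2. Of 24 of these genes on chromosomes 17, 19 and 22, none had a control peak, and DDX5 and HNRNPL had a knockdown peak. Across all genes on those chromosomes 0.358% and 0.782% had one.

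Promoters of these genes were searched for 8 short motifs in the 300 bases from 250 before to 50 after the start, on both strands, in the 146 of the 164 genes with a sequence in the table. The ETS factor motif was searched as CCGGAAG, the box bound by NF-Y by the letters of its usual name, CCAAT, and the GC box of the SP factors as GGGCGG. The core motif of NRF1 was searched as GCGCATGCG and that of YY1 as AAGATGGCG. The E-box was searched as CACGTG, the TATA box as TATAAA, and the cyclic AMP response element as TGACGTCA. No motif contains another. A match is a description of the letters and not of binding. Genes are grouped by a peak in the gene or within 3 kb of an end, which need not cover the promoter. At DDX43, DDX60L, HNRNPL and SRSF5 no base of the 250 before the start lay under a peak. The ETS letters were found in the promoters of 7 of 21 genes with a peak (33.3%, interval 14.6 to 57.0%). Among the genes without a peak, 42 of 125 held them (33.6%, interval 25.4 to 42.6%). The share was 14.2% of all 15842 promoters and 18.3% of the promoters of all genes with a peak. Of the 21, DDX1, DDX5, DDX50, HNRNPD, HNRNPF, SF3B6 and SRSF5 held the ETS letters, SF3B6 at 3 places. The share in these families was thus above that of all genes, and alike with and without a peak.

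The E-box letters were found in the promoters of 6 of 21 genes with a peak (28.6%, interval 11.3 to 52.2%). Among the genes without a peak, 13 of 125 held them (10.4%, interval 5.65 to 17.1%). The share was 8.88% of all promoters and 10.6% of the promoters of all genes with a peak. Of the 21, DDX5, HNRNPA3, HNRNPD, HNRNPDL, HNRNPH3 and RBM15 held the E-box letters. GC box letters were in the promoters of 16 of the 21 genes with a peak (76.2%) and of 56.0% of those without. The promoters of all genes with a peak gave 68.2%. CCAAT letters were in 57.1% and 47.2%, against 43.4%. Of the 21 genes with a peak, only DDX11 held the NRF1 core and only HNRNPD the TATA letters. None of the 21 held the YY1 core or the cyclic AMP response element. The 21 promoters include the start of RBM27 also for its readthrough. Base composition hardly differed: the median G and C content was 62.0% with a peak and 61.3% without, against 62.7% of all promoters.

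**Figure D5:**
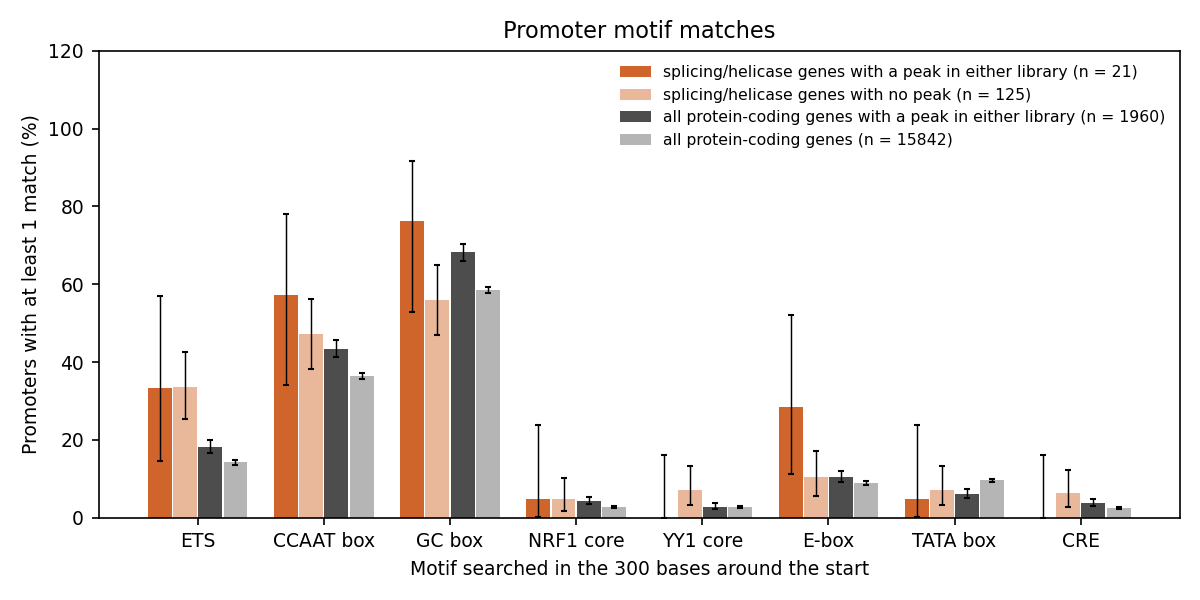
Share of promoters with at least 1 match (y axis, percent, with 95% exact intervals) for each motif (x axis) in splicing and helicase genes with a peak (n = 21) and without (n = 125), and in all protein-coding genes with a peak and in all. ETS matches stand at 33.3% and 33.6% in these genes, above 18.3% and 14.2% in the others. E-box matches stand at 28.6% and 10.4% in these genes, with overlapping intervals, and at 10.6% and 8.88% in the others.

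Other genes of the pathway, in 11 lists of splicing factors and helicases with other symbols, gave similar shares. Of 129 genes, 11 carried a control peak (8.53%) and 14 a knockdown peak (10.9%), with 8 in both lists, where all protein-coding genes gave 7.64%, 9.26% and, for both, 4.95%. Among the snRNP assembly factors 3 of 11 had a control peak and 4 of 11 a knockdown peak, the highest counts of the 11 lists and, with so few genes, no more than a description. GEMIN5, which binds the snRNA, had folds of 2.95 and 3.18 in the control and the knockdown, and GEMIN2, the partner of SMN, 3.43 and 3.26. STRAP, which joins the SMN complex, had 3.48 and 4.02, and GEMIN8 had 3.67 in the knockdown only. PNN, a protein at exon junction complexes, had the highest fold of the control among the 129, 4.27, and 3.94 in the knockdown. LUC7L2, of the U1 particle, had 3.59 and 2.97, and CWC27, a spliceosomal cyclophilin, 3.54 and 3.77. Among the LSm genes, LSM3 and LSM5 had only control peaks and LSM8 only a knockdown peak. TIAL1, SLU7, KHSRP and YTHDC2 had one in the knockdown only and RIGI in the control only, while MBNL1 and IFIH1 had one in both. None of the 11 tri-snRNP, 10 U2 and 3′ splice site, 9 minor spliceosome and 9 SR kinase genes had a peak in either library.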

How the data were processed

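Per the labels, C4-2 cells gave 1 ATAC-seq library under control shRNA and 1 under WHSC1 shRNA. Peaks were deposited as 1 list per library, on GRCh38. The submitters' processing notes name MACS2, Bowtie2 2.2.9, Picard 1.101, SAMtools 1.9, ChIPseeker 1.22.1 and CASAVA 1.8.2, with no role or order. The sources used here do not give calling options, the transposase shift or duplicate handling, which can change which weak peaks are listed. The deposited fold enrichment is a ratio over local background in the same library. The deposited −log10 p- and q-values are per peak, and the score deposited beside them is the −log10 q times 10, truncated.

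Gene positions came from a RefSeq table (GRCh38.p14), and starts and promoter sequences from a RefSeq promoter table with a start for 15842 of the 20037 protein-coding genes and 146 of the 164 members. Peaks in a gene or within 3 kb of its ends were assigned to it. Overlap meant at least 1 bp. Gene density was the number of protein-coding genes with a middle within 500 kb, and background shares were weighted by 10 classes of it, in place of drawing comparison genes. Intervals are 95% exact and cover counting only. With 1 library per group there was no test.

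Named genes are the members with a peak, except 1 that is not reported here though the counts include it, plus well-known members and those nearest the 3 kb limit. Members and lists were chosen with earlier results of these data known. Alternatives were other q limits, lists of equal length, other distances, ends or starts only, unshared peaks, other overlaps and a wider RBM rule. Leaving out readthrough genes or DDX11 was added after seeing the data. On planted peaks the assignment recovered 400 of 400 (20037 genes). Software was matplotlib 3.10.9, scipy 1.17.1, pandas 2.3.3, numpy 2.4.6 and Python 3.11.15.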

Additional observations from a re-analysis of the deposited data

How the results depend on the processing

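Each group has 1 library and the peak lists hold no reads, so the stability of a call cannot be measured. Of 80 recomputed values, 59 stayed within 1.5 times the main count or within the 95% interval of the main median. With a −log10 q of at least 2, the genes with a peak numbered 9 in the control, 12 in the knockdown, 6 in both and 6 in the knockdown only (4.36%, 5.63%, 2.86% and 2.77% of all genes), and 5 peaks of each list were overlapped by the other. At a −log10 q of at least 5 they numbered 2, 4, 2 and 2, with 0 in the control only (all genes 0.579%, 0.739%, 0.294%, 0.444% and 0.284%). The 2 control genes, which are also the 2 in both, are RBM27 and its readthrough, with the same peak. Counted as peaks, 1 in the control and 3 in the knockdown reached this limit. At that limit the median folds over these genes, each at its highest peak, were 4.80 (control) and 4.57 (knockdown), and 1 peak of each list was overlapped by the other. With lists of equal length, 6 genes had a peak in the knockdown only. Peaks not shared with a coding neighbour gave 6 genes in the control, 11 in the knockdown and 3 in both. Shares of all genes were not set beside these counts or that of the lists of equal length. Counting only overlaps that cover 50% or more of each peak left 6 overlapped peaks in each list. Each of these settings keeps fewer peaks or asks more of an overlap by construction. Under a q limit, a gene whose peak in the other list falls below it counts as 1 library only. At 2 this held for HNRNPD and SF3B6 (knockdown) and HNRNPH3 (control), and at 5 for DDX18 (knockdown). A distance of 1 kb, gene ends only, starts only, the wider RBM rule (178 genes), and leaving out the readthrough genes or DDX11 moved no count by more than 1.5 times. No paired analysis was possible because each group has 1 library.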
